A study of Mus musculus with 24 samples.

Results

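The transcripts described here encode the subunits of the transcription factor NF-κB and the proteins that hold it in check. The rule named 10 genes, of which 5 encode subunits (*Nfkb1*, *Nfkb2*, *Rel*, *Rela*, and *Relb*) and 5 encode inhibitors (*Nfkbia*, *Nfkbib*, *Nfkbie*, *Nfkbiz*, and *Tnfaip3*). Of these, 9 had a row among the 23930 amplicons measured, 4 for subunits and 5 for inhibitors, and *Nfkb1* was not analysed here. All 9 passed the filter on low values in every comparison, so none was lost to it.

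NF-κB is a dimer of subunits that share a DNA-binding *Rel* homology domain. In a resting cell, IκB proteins keep it in the cytoplasm; a signal such as TLR7 acting through MyD88, IRAK kinases, and TRAF6 activates the IκB kinase complex, IκB is degraded, and the dimer enters the nucleus. Among its targets are the genes of its own inhibitors, above all *Nfkbia* and *Tnfaip3*, so that the response is shut off again. In monocytes and macrophages, this circuit controls the transcription of cytokine and chemokine genes.

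RNA was taken from splenic monocytes of C57BL/6 mice, sorted by FACS into Ly6C hi and Ly6C low subsets without any treatment, and the labels call the cells macrophages. WT mice, bought from a supplier, were compared with *Slc29a3*-/- mice, which lack the lysosomal nucleoside transporter SLC29A3 through a stop codon inserted by CRISPR/Cas9, and with *Slc29a3*-/- *Tlr7*-/- mice, which also carry a small deletion in *Tlr7*. The mutants came from matings of mice heterozygous for both mutations, and the WT mice did not; the age of the mice is not given in the sources used here. Each of the 6 groups of subset and genotype had 4 libraries, 24 in all, made from total RNA with a multiplex PCR panel of 1 amplicon per gene (Ion AmpliSeq). Values are reads scaled to a total of 1000000 per library (RPM). Because each amplicon has its own PCR yield, an RPM was compared between libraries and never between genes. Nothing in the labels says that the 4 libraries of a group came from separate mice, so the P values measure the spread between libraries, which may in part be technical.

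The libraries did not all fall with their groups. WT replicates 1 to 3 of both subsets carried the barcodes 11 to 16 and had 14237166 to 14572025 reads, as inferred from the step between low values, whereas WT replicate 4 (barcode 29 for the Ly6C hi and 35 for the Ly6C low library) and the 16 mutant libraries carried barcodes from 24 upward and had 12311085 to 13048340 reads. The 3 reads taken as the limit of detection corresponded to 0.206 to 0.244 RPM. Over all genes tested, the largest distance among WT replicates 1 to 3 was 24.3 on the log2 scale in Ly6C hi, and the smallest distance from any of them to WT replicate 4 was 63.7; in Ly6C low these distances were 44.4 and 67.4. WT replicate 4 is therefore shown apart throughout, and the members are compared with all 4 WT libraries and with replicate 4 alone; the list counts given further on use all 4 WT libraries only. Subset markers went with the labels, but *Fcgr4*, 1 of the 6 Ly6C low genes below, was part of the sort and is no check. The study took Ly6C hi cells as Fcgr4 low and Ly6C low cells as Fcgr4 high. The summed RPM of 3 Ly6C hi monocyte genes, *Ccr2* among them, was 1143 to 3445 in Ly6C hi and 5.91 to 254 in Ly6C low libraries, and the sum of 6 Ly6C low genes was 528 to 2440 and 5319 to 9893, respectively. *Slc29a3* itself read 163 to 225 RPM in WT and 127 to 413 RPM in mutant Ly6C hi libraries, and *Tlr7* read 259 to 345 RPM in *Slc29a3*-/- *Tlr7*-/- Ly6C hi libraries. Where these amplicons lie relative to the mutations is not given in the sources used here, so their levels do not check the genotype labels.

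The upstream sequences of the members are shown first, because autoregulation through κB sites is what the family is known for. RefSeq promoters (build GRCm38.p6, 250 bases before to 50 after the start) were at hand for 7 members. The NF-κB consensus of 10 bases, searched on both strands with overlapping matches counted separately, occurred in 5 of these 7 genes, *Nfkb2*, *Rel*, *Nfkbia*, *Nfkbie*, and *Tnfaip3*, against 9.55% of the 27025 genes in the table and 8.46% of its 32851 promoters. The 150 bases before the start are printed for these 5, 5′ to 3′ on the strand of the gene, with the matches in capitals; for *Nfkb2* and *Tnfaip3*, which have more than 1 annotated start, the start shown is the one with the most matches in that stretch.

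*Nfkb2* (chr19:46304587-46304736, plus strand): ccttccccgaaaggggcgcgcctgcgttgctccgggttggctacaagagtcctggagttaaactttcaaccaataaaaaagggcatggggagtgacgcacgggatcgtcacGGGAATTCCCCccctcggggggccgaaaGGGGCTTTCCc
*Rel* (chr11:23770970-23771119, minus strand): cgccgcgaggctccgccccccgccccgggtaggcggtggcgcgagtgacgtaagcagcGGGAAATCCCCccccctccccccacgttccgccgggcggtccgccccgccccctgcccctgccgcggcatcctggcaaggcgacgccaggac
*Nfkbia* (chr12:55492648-55492797, minus strand): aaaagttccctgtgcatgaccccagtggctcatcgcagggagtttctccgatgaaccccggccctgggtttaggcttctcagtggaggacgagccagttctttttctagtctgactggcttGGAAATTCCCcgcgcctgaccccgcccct
*Nfkbie* (chr17:45555550-45555699, plus strand): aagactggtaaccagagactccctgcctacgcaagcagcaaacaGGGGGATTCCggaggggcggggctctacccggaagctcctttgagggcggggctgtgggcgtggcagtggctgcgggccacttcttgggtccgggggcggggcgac
*Tnfaip3* (chr10:19015411-19015560, minus strand): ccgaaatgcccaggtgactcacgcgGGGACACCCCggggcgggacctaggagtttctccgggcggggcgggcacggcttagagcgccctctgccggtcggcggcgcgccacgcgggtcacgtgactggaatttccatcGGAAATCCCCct

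In the stretch shown, *Nfkb2* held 3 matches, a pair overlapping by all but 1 base at 39 and 38 bases before the start and another at 11. *Rel* held an overlapping pair at 92 and 91 bases, *Nfkbia* a single match at 29, *Nfkbie* a single match at 106, and *Tnfaip3* a match at 125 and another at 12 bases before the start. The windows of *Rela* and *Nfkbib* held no match to these letters. In the mm10 annotation of GENCODE, the members without a sequence shown lie at chr19:5637483-5648130 (*Rela*, plus strand), chr7:19606217-19629438 (*Relb*, minus), chr7:28758251-28767512 (*Nfkbib*, minus), and chr16:55811375-55838899 (*Nfkbiz*, minus). A match is a stretch of letters and not a measured binding site. The 5 genes with a match were not alike in these libraries, as described below. Against all 4 WT libraries, *Nfkbia*, *Tnfaip3*, and *Rel* were lower in mutant Ly6C hi monocytes, and *Nfkbie* was higher in *Slc29a3*-/- *Tlr7*-/- Ly6C hi monocytes. For each of these genes, WT replicate 4 lay inside the range of the mutant Ly6C hi libraries. *Nfkb2* was not called against WT in either subset.

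Among the inhibitors, *Nfkbia* encodes IκBα, the IκB that is degraded and resynthesized within the response. In Ly6C hi monocytes, WT replicates 1 to 3 gave 981, 928, and 952 RPM and WT replicate 4 gave 274 RPM. The 4 *Slc29a3*-/- libraries gave 403, 354, 247, and 267 RPM, and the 4 *Slc29a3*-/- *Tlr7*-/- libraries gave 376, 183, 408, and 320 RPM. The first 3 WT libraries stood far above all the others, and WT replicate 4 lay inside the range of the mutants. For the Ly6C low subset, WT replicates 1 to 3 gave 1092, 1291, and 1046 RPM, against 365 RPM in WT replicate 4. The *Slc29a3*-/- libraries gave 409, 532, 587, and 710 RPM and the *Slc29a3*-/- *Tlr7*-/- libraries 358, 483, 276, and 230 RPM, so that WT replicate 4 was again among the mutants.

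*Tnfaip3* encodes A20, a ubiquitin-editing enzyme that shuts off signaling to the IκB kinase. Its Ly6C hi values were 280, 342, and 268 RPM in WT replicates 1 to 3 and 37.6 RPM in WT replicate 4. They were 28.1, 20.6, 15.8, and 25.6 RPM in *Slc29a3*-/- and 35.04, 8.45, 56.9, and 46.6 RPM in *Slc29a3*-/- *Tlr7*-/- libraries. The mean of WT replicates 1 to 3 was 10.02 times that of the 8 mutant libraries and 7.89 times the value of WT replicate 4. The Ly6C low values were 248, 339, and 237 RPM in WT replicates 1 to 3, 34.5 RPM in replicate 4, 41.4 to 80.2 RPM in *Slc29a3*-/-, and 21.7 to 65.8 RPM in *Slc29a3*-/- *Tlr7*-/- libraries. WT replicates 1 to 3 did not overlap with any other library in either subset.

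*Nfkbiz* encodes IκBζ, a nuclear IκB that is induced by TLR and IL-1 signals and acts on promoters of secondary response genes. In Ly6C hi monocytes, it read 912, 940, and 891 RPM in WT replicates 1 to 3, 126 RPM in WT replicate 4, 156, 153, 124, and 68.9 RPM in *Slc29a3*-/-, and 144, 90.9, 115, and 234 RPM in *Slc29a3*-/- *Tlr7*-/- libraries. Its Ly6C low values were 1626, 1466, and 1687 RPM in WT replicates 1 to 3 and 447 RPM in replicate 4. The mutants gave 559, 589, 533, and 563 RPM (*Slc29a3*-/-) and 490, 637, 504, and 616 RPM (*Slc29a3*-/- *Tlr7*-/-). Here, WT replicate 4 was below every mutant library, whereas WT replicates 1 to 3 were above every one.

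*Nfkbib* encodes IκBβ, which holds NF-κB in a more lasting way than IκBα. WT replicates 1 to 3 gave 573 to 659 RPM and WT replicate 4 gave 236 RPM in Ly6C hi monocytes, above the 130 to 159 RPM of *Slc29a3*-/- and the 171 to 230 RPM of *Slc29a3*-/- *Tlr7*-/- libraries. It was the only inhibitor for which WT replicate 4 exceeded all 8 mutant libraries in Ly6C hi. The Ly6C low values were 402 to 515 RPM, 313 RPM, 201 to 263 RPM, and 189 to 374 RPM in the same order.

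*Nfkbie*, which encodes IκBε, went the other way. In Ly6C hi monocytes, it read 34.1, 37.7, and 39.1 RPM in WT replicates 1 to 3 and 49.1 RPM in WT replicate 4, against 72.5, 68.4, 62.6, and 25.8 RPM in *Slc29a3*-/- and 76.0, 47.4, 77.3, and 71.9 RPM in *Slc29a3*-/- *Tlr7*-/- libraries. In Ly6C low monocytes, WT replicates 1 to 3 gave 45.8 to 55.2 RPM, below the other 9 libraries, which ranged from 55.9 to 91.6 RPM. It was the only member with this direction in the Ly6C low subset.

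Among the subunits, *Rel* encodes c-Rel and *Rela* encodes p65, both with a transactivation domain. In Ly6C hi monocytes, *Rel* gave 131, 150, and 130 RPM in WT replicates 1 to 3, 87.4 RPM in replicate 4, 44.6 to 73.4 RPM in *Slc29a3*-/-, and 41.8 to 105 RPM in *Slc29a3*-/- *Tlr7*-/- libraries. In Ly6C low monocytes, the groups of *Rel* overlapped, with 124 to 244 RPM over all 4 WT, 133 to 191 RPM over *Slc29a3*-/-, and 41.7 to 181 RPM over *Slc29a3*-/- *Tlr7*-/- libraries. The Ly6C hi values of *Rela* were 247, 250, and 265 RPM in WT replicates 1 to 3, 184 RPM in replicate 4, 134 to 170 RPM in *Slc29a3*-/-, and 157 to 191 RPM in *Slc29a3*-/- *Tlr7*-/- libraries. Among its Ly6C low values, all 4 WT libraries (299.97, 314, 300.1, and 294 RPM) were above all 8 mutant libraries (153 to 242 RPM). WT replicate 4 thus sided with the other WT libraries for *Rela* in Ly6C low; for *Rel* (192 RPM) and *Nfkb2* (402 RPM) in Ly6C low it lay inside their range as well.

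*Nfkb2* encodes p100, the precursor of p52 and itself an inhibitor in its uncleaved form. Its Ly6C hi values were 304 to 319 RPM in WT replicates 1 to 3, 364 RPM in replicate 4, 330, 265, 243, and 199 RPM in *Slc29a3*-/-, and 322 to 374 RPM in *Slc29a3*-/- *Tlr7*-/- libraries, and in Ly6C low it ranged from 353 to 469 RPM over all 12 libraries with the groups overlapping. *Relb*, the partner of p52 in the noncanonical pathway, was at 0 to 2.08 RPM in Ly6C hi and at 0.719 to 2.10 RPM in Ly6C low libraries. No difference of *Relb* passed a threshold, and 1 library listed it at 0.

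**Figure D1:**
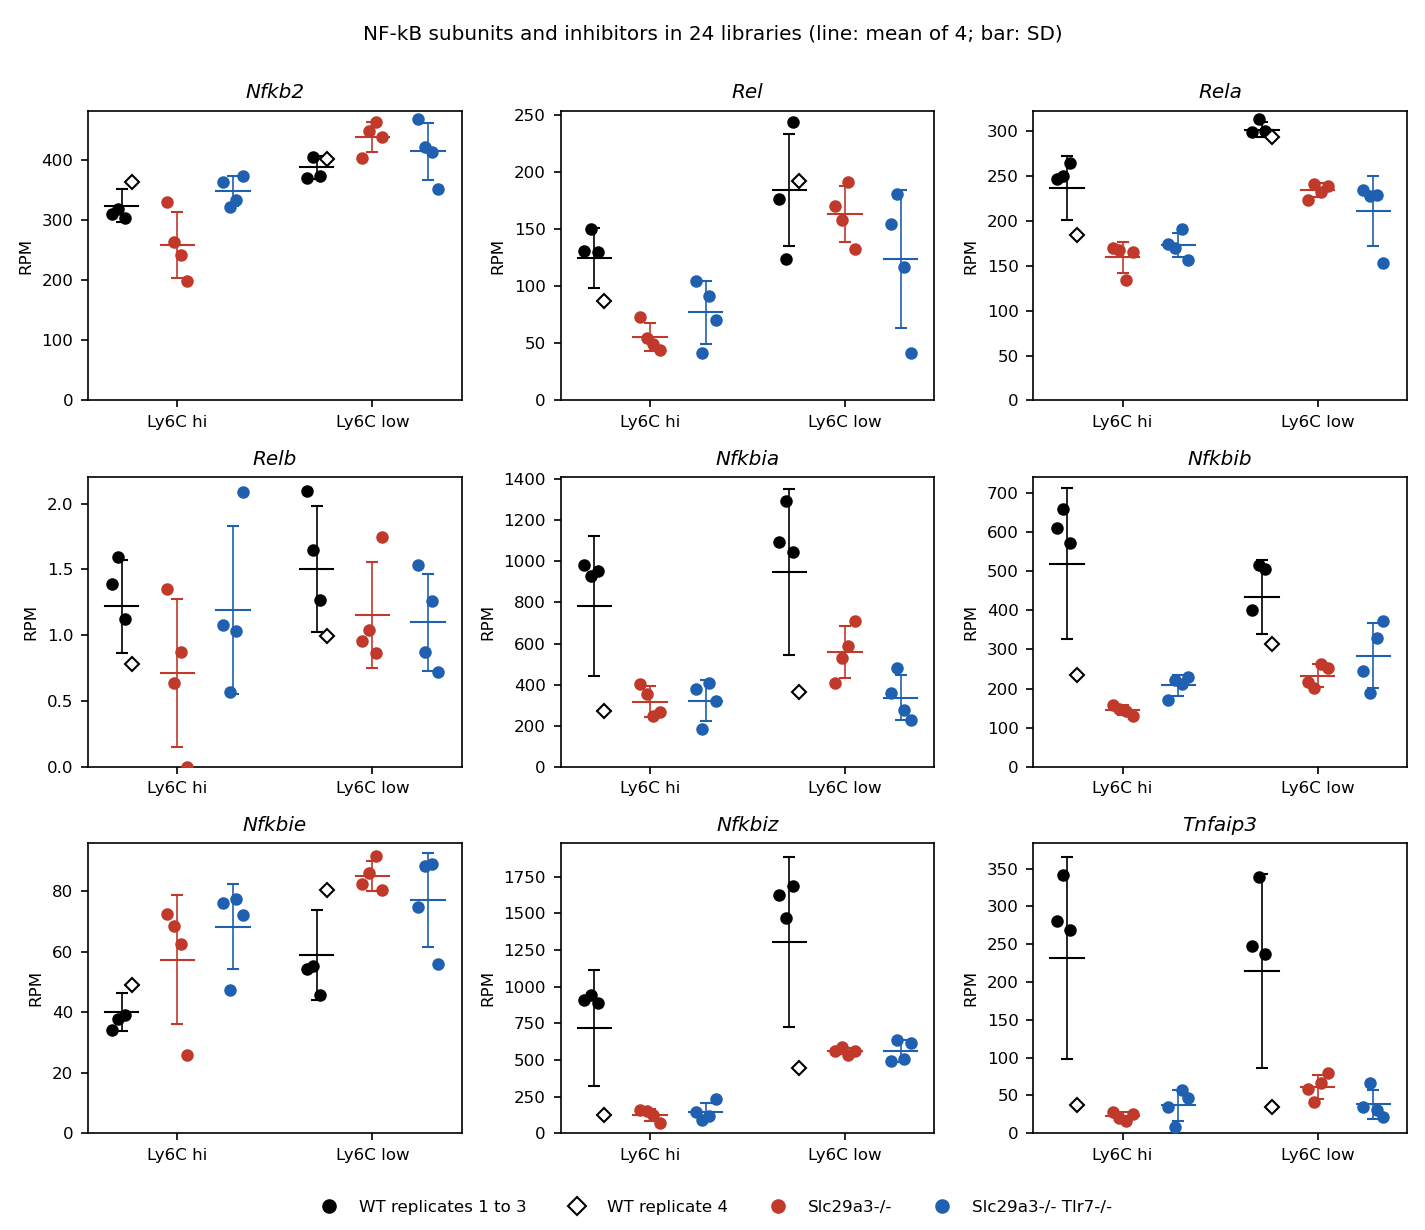
Level of each of the 9 members in every library, in RPM on an axis that starts at 0, by subset and genotype; filled black points are WT replicates 1 to 3, open diamonds are WT replicate 4, red points are *Slc29a3*-/- and blue points *Slc29a3*-/- *Tlr7*-/- libraries, lines are means of 4 and bars SD. For *Nfkbia*, *Nfkbiz*, and *Tnfaip3* the open diamond lies near the mutants (274, 126, and 37.6 RPM in Ly6C hi), far below the filled black points, and for *Nfkbie* the filled black points are the low ones.

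WT replicates 1 to 3 lay above all 9 other libraries of the subset for 6 of 9 members in Ly6C hi (*Rel*, *Rela*, *Nfkbia*, *Nfkbib*, *Nfkbiz*, and *Tnfaip3*) and for 5 in Ly6C low (the same without *Rel*), whereas over all genes tested this was the case for 9.75% and 7.31%. They lay below the other 9 for no member in Ly6C hi and for 1, *Nfkbie*, in Ly6C low, against 4.55% and 9.94% of all genes. WT replicate 4 lay within the range of the 8 mutant libraries for 8 of 9 members in Ly6C hi and 6 of 9 in Ly6C low, against 80.3% and 66.7% of all genes.

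The first question of the design was what the loss of SLC29A3 changed in each subset. Against all 4 WT libraries, 5 of 9 members were lower in *Slc29a3*-/- Ly6C hi monocytes at the thresholds of the study (an unadjusted P under 0.05 in the limma fit together with a change of more than 1.5-fold), and 26.7% of all genes tested passed these thresholds in either direction. Log2 fold changes on the scale of RPM + 1 were -2.95 ± 0.62 (SE) for *Tnfaip3*, -2.21 ± 0.53 for *Nfkbiz*, -1.73 ± 0.25 for *Nfkbib*, -1.16 ± 0.36 for *Nfkbia*, and -1.15 ± 0.26 for *Rel*. Their Benjamini-Hochberg adjusted P values from limma were 0.00365, 0.00735, 0.000405, 0.0269, and 0.00479. *Rela* fell by 0.56 on the log2 scale at an adjusted P of 0.00786, under the fold threshold, so that 6 members were called by adjusted P, against 27.9% of all genes. The median of all genes in this comparison was itself -0.14. Scaling by TMM moved that median to 0.03 and the split of genes called higher and lower from 991 and 1826 to 1465 and 1282; the 5 members stayed lower, and *Nfkbie* was then called higher, at 0.59.

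When WT was represented by replicate 4 alone, 1 member, *Nfkbib*, was called in that comparison, at -0.70 ± 0.22 and an adjusted P of 0.137. *Nfkbia* turned to 0.18, *Nfkbiz* was -0.074, and *Tnfaip3* was -0.75 ± 0.72. This fit compares 4 libraries with 1 and assumes that the lone library varies like the others. With WT replicates 1 to 3 alone, 6 members were called, and the values were -3.69 for *Tnfaip3*, -2.93 for *Nfkbiz*, and -1.61 for *Nfkbia*; the sixth was *Rela* (-0.67). *Nfkbie* was called higher without *Slc29a3*-/- replicate 4 (0.76).

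In Ly6C hi monocytes that lacked TLR7 as well, 6 members were called against all 4 WT libraries, with 12.6% of all genes as background. *Tnfaip3* (-2.52 ± 0.62), *Nfkbiz* (-2.02 ± 0.53), *Nfkbib* (-1.22 ± 0.25), *Nfkbia* (-1.18 ± 0.36), and *Rel* (-0.74 ± 0.26) were lower, and *Nfkbie* was higher (0.74 ± 0.27). By adjusted P, only *Nfkbib* was called (0.0388), against 1.46% of all genes. The call of *Rel* rested on *Slc29a3*-/- *Tlr7*-/- replicate 2, without which its value was -0.47. Against WT replicate 4 alone, no member was called by limma at either threshold, and none reached an unadjusted P of 0.05; *Nfkbia* was then 0.17 and *Nfkbiz* 0.12.

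The third comparison set the 2 mutants against each other, which asks what TLR7 adds when SLC29A3 is missing. The contrast holds no WT library, but the fit shared its estimate of the spread with the WT libraries. In Ly6C hi monocytes, no member of 9 passed the study thresholds in limma, against 22.3% of all genes, and 1 had an unadjusted P under 0.05. That member was *Nfkb2*, at 259 ± 54.6 RPM (SD, n = 4) in *Slc29a3*-/- and 349 ± 24.7 RPM (SD, n = 4) in *Slc29a3*-/- *Tlr7*-/- libraries. Its log2 fold change was -0.45 ± 0.14, and its adjusted P of 0.03997 was the only one under 0.05 among the members, against 20.4% of all genes. *Nfkbia* differed by 0.014 ± 0.36, *Nfkbiz* by -0.20 ± 0.53, and *Tnfaip3* by -0.44 ± 0.62, each less than its standard error. With no WT library in the fit, these errors were 0.25, 0.30, and 0.46, *Nfkb2* had an adjusted P of 0.0830 in limma, and *Nfkbib* one of 0.0299. *Nfkbib* did not overlap between the mutants, with 130 to 159 RPM in *Slc29a3*-/- and 171 to 230 RPM in *Slc29a3*-/- *Tlr7*-/- libraries, but its value of -0.52 ± 0.25 did not pass in the shared fit. *Rel* passed when *Slc29a3*-/- *Tlr7*-/- replicate 2 was left out (-0.68) and *Nfkbib* when *Slc29a3*-/- *Tlr7*-/- replicate 1 was left out (-0.61). TMM moved the split of all genes called higher and lower from 1105 and 1254 to 1418 and 799 without a call among the members.

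The *Slc29a3*-/- Ly6C hi libraries also differed in markers of other cells. The summed RPM of 10 neutrophil genes, *Ltf* among them, was 42486 to 81630 in *Slc29a3*-/-, 6362 to 21767 in *Slc29a3*-/- *Tlr7*-/-, and 13935 to 21668 in WT Ly6C hi libraries, although Ly6G-positive cells had been removed; none of the 10 genes was at 0 in *Slc29a3*-/-. Against WT, *Ltf*, *Camp*, *Ngp*, *Lcn2*, *Ly6g*, and *Cxcr2* were called higher in *Slc29a3*-/- (*Ltf* 1.78) and *Mmp8* (-1.07) and *Retnlg* (-2.11) lower, so the list did not move as a whole. A progenitor list of 6 genes, *Mpo* among them, summed to 856 to 2868 RPM in *Slc29a3*-/-, 352 to 929 RPM in *Slc29a3*-/- *Tlr7*-/-, and 335 to 448 RPM in WT. Heat shock genes (5 in the list) summed to 384, 727, 783, and 2601 RPM in *Slc29a3*-/- *Tlr7*-/- replicates 1 to 4 and to 200 to 453 RPM in *Slc29a3*-/- Ly6C hi libraries, and 4 of the 5 were called lower in *Slc29a3*-/- than in *Slc29a3*-/- *Tlr7*-/-. *Slc29a3*-/- replicate 4 had the highest neutrophil sum and the lowest *Nfkb2*, *Rel*, *Relb*, *Nfkbib*, *Nfkbie*, and *Nfkbiz* of its group. Its *Rela*, *Nfkbia*, and *Tnfaip3* lay inside the range of the other libraries of the group. In bulk RNA, fewer cells of a type and less RNA per cell cannot be told apart, and the part of these cells or of the heat shock genes in the members' values was not tested.

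Turning to the Ly6C low subset, 3 members were lower in *Slc29a3*-/- than in all 4 WT libraries, against 13.2% of all genes called. They were *Tnfaip3* (-1.43 ± 0.56), *Nfkbiz* (-1.05 ± 0.32), and *Nfkbib* (-0.87 ± 0.22), and by adjusted P only *Nfkbib* was called (0.0334), against 4.64% of all genes. *Nfkb2* (0.18), *Rel* (-0.15), *Rela* (-0.36), *Relb* (-0.21), *Nfkbia* (-0.64), and *Nfkbie* (0.55) were not called. The call of *Tnfaip3* was lost without WT replicate 1, 2, or 3 or without *Slc29a3*-/- replicate 2, with values from -1.25 to -1.07. With TLR7 also missing, 4 members were lower in Ly6C low monocytes, against 20.7% of all genes: *Tnfaip3* (-2.18 ± 0.56), *Nfkbia* (-1.40 ± 0.34), *Nfkbiz* (-1.05 ± 0.32), and *Nfkbib* (-0.63 ± 0.22). Adjusted P values were under 0.05 for *Nfkbia* (0.0296), *Tnfaip3* (0.0320), and *Rela* (0.0390; log2 fold change -0.53 ± 0.14), against 8.87% of all genes. *Nfkbib* lost its call without WT replicate 2 (-0.54) or 3 (-0.55) or *Slc29a3*-/- *Tlr7*-/- replicate 1 (-0.57) or 2 (-0.45), and with TMM (-0.58). *Nfkb2* (0.089), *Relb* (-0.25), and *Nfkbie* (0.39) passed neither threshold. *Rel* (-0.72 ± 0.36) missed the call but passed it without WT replicate 2 (-0.89) or *Slc29a3*-/- *Tlr7*-/- replicate 1 (-0.89) or 2 (-0.96), and *Rela* passed it without *Slc29a3*-/- *Tlr7*-/- replicate 1 (-0.59). Marker sums also differed here. Neutrophil genes summed to 691 to 1414 RPM in WT replicates 1 to 3, 218 RPM in WT replicate 4, and 137 to 235 RPM in mutant Ly6C low libraries, and 3 erythroid genes to 34.0 to 39.6 RPM in *Slc29a3*-/- and 0 to 5.60 RPM in all other Ly6C low libraries; their part in the members' values was not tested.

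Against WT replicate 4 alone, no member was called in either Ly6C low comparison and none had an unadjusted P under 0.05 in limma. *Tnfaip3* turned to 0.78 ± 0.50 and *Nfkbiz* to 0.33 ± 0.20 in *Slc29a3*-/-, and *Nfkbia* moved from -0.64 to 0.59 ± 0.38. For *Slc29a3*-/- *Tlr7*-/-, *Nfkbiz* was 0.32 ± 0.20 and *Tnfaip3* 0.023 ± 0.50, *Nfkbia* was -0.17 ± 0.38, and *Nfkbie* moved from 0.39 to -0.087 ± 0.26. *Rela* kept its size, at -0.33 against -0.36 with all WT libraries in *Slc29a3*-/- and at -0.50 against -0.53 in *Slc29a3*-/- *Tlr7*-/- monocytes. Without WT replicate 4, *Nfkbia* (-1.05) and *Nfkbie* (0.71) were also called in *Slc29a3*-/-.

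**Figure D2:**
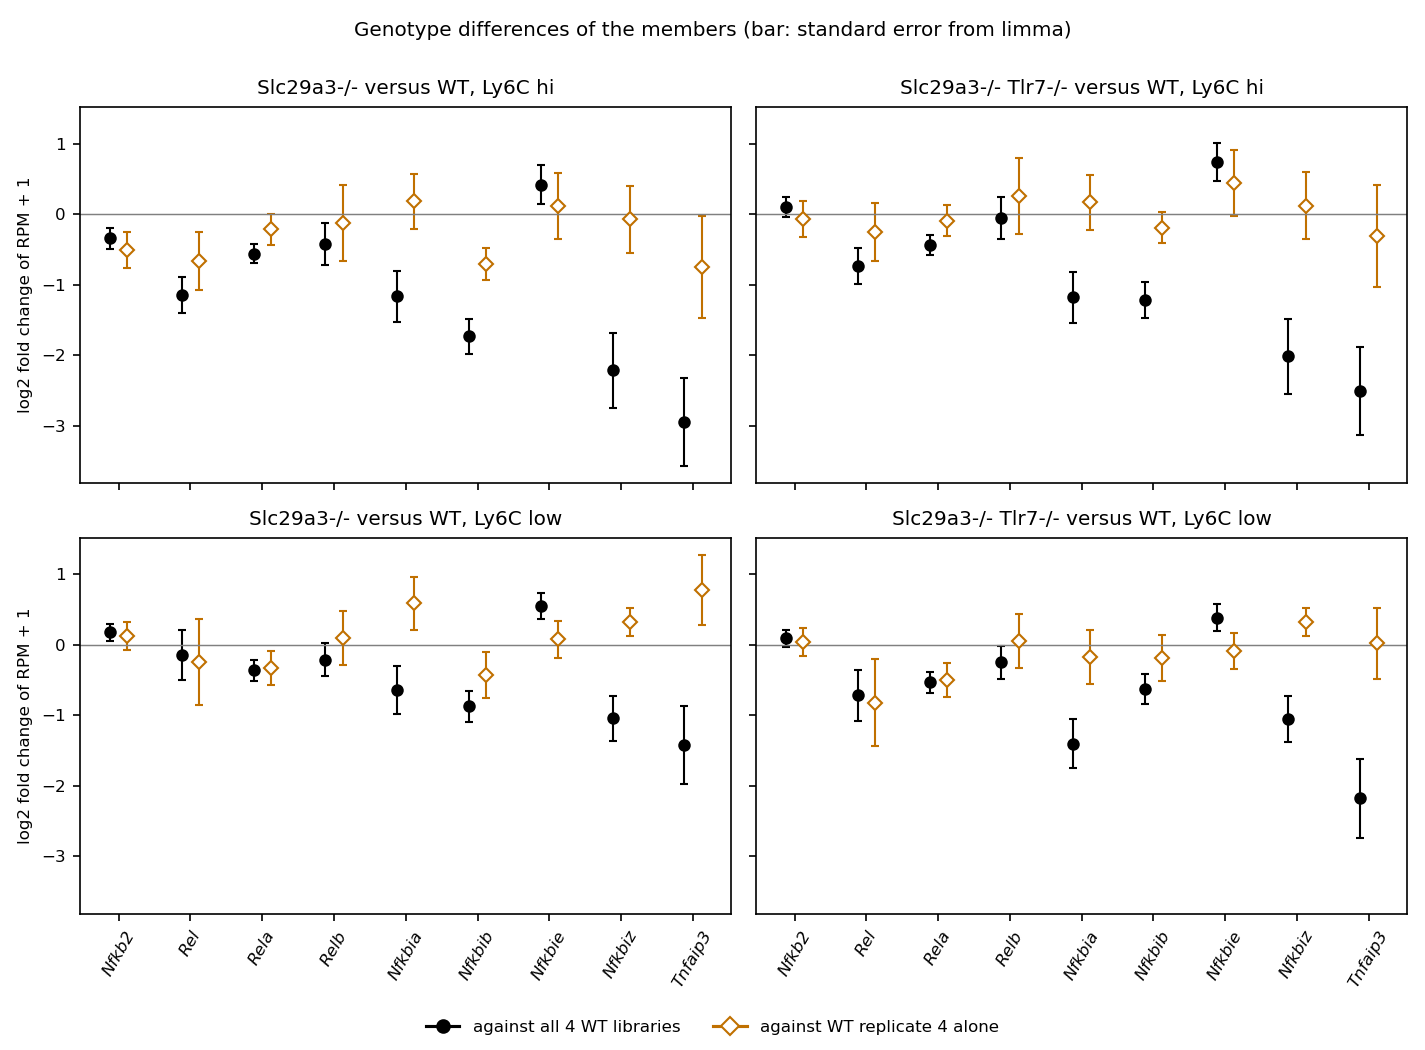
Log2 fold change of RPM + 1 of each member in the 4 comparisons with WT; black points use all 4 WT libraries, open orange diamonds use WT replicate 4 alone, and bars are standard errors from limma. *Tnfaip3*, *Nfkbiz*, and *Nfkbia* lie below 0 against all WT libraries and higher against replicate 4 in every panel (*Tnfaip3* in *Slc29a3*-/- Ly6C hi -2.95 and -0.75), whereas *Rela* in Ly6C low stays at about the same value (-0.36 and -0.33 in *Slc29a3*-/-).

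Between the 2 mutants in Ly6C low monocytes, *Nfkbia* was the only member called, against 13.7% of all genes, and no member was called by adjusted P, against 1.93%. It read 560 ± 125 RPM (SD, n = 4) in *Slc29a3*-/- and 337 ± 111 RPM (SD, n = 4) in *Slc29a3*-/- *Tlr7*-/- libraries, and the values overlapped. The log2 fold change was 0.76 ± 0.34, with 0.246 as the adjusted P in limma. The call was lost under TMM (0.70), without the filter (0.76), and without any 1 of 6 of the 8 libraries, all except *Slc29a3*-/- replicate 1 and *Slc29a3*-/- *Tlr7*-/- replicate 2, with values from 0.60 to 0.81. With no WT library in the fit, *Tnfaip3* was called as well, at 0.75, and without *Slc29a3*-/- *Tlr7*-/- replicate 2 *Rel* was (0.82). In this group, *Slc29a3*-/- *Tlr7*-/- replicate 4 had the lowest *Nfkb2*, *Rel*, *Rela*, *Relb*, *Nfkbia*, *Nfkbie*, and *Tnfaip3* and the highest sum of 5 heat shock genes, 3574 RPM against 339 to 1556 RPM in the other 3. It also had the highest *Nfkbib* (374 RPM), and its *Nfkbiz* (616 RPM) lay inside the range of the other 3. The part of the heat shock genes was not tested.

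The members were next compared between the subsets within each genotype. *Nfkbiz* was lower in Ly6C hi than in Ly6C low monocytes in all 3 genotypes by the study thresholds, with -1.05 ± 0.48 in WT, -2.22 ± 0.48 in *Slc29a3*-/-, and -2.02 ± 0.48 in *Slc29a3*-/- *Tlr7*-/- monocytes. In each mutant, the 4 Ly6C hi libraries (68.9 to 234 RPM over both) lay below the 4 Ly6C low libraries (490 to 637 RPM), and the mean was 4.48 times higher in Ly6C low of *Slc29a3*-/- and 3.85 times higher in Ly6C low of *Slc29a3*-/- *Tlr7*-/- mice. WT gave the same order when its libraries were split, with ratios of 1.74 for replicates 1 to 3 and 3.55 for replicate 4. Without WT Ly6C hi replicate 4, the WT value was -0.34, and it also missed the threshold without WT Ly6C low replicate 1 (-0.89), 2 (-0.94), or 3 (-0.87) and without the filter (-1.05).

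Within WT, *Nfkbiz* was the only member called between subsets, against 29.3% of all genes, and *Rela* (-0.36 ± 0.14, adjusted P 0.0455) the only one by adjusted P, against 29.6%. Within *Slc29a3*-/- *Tlr7*-/- mice, *Nfkbiz* was again the only one by both thresholds, with an adjusted P of 0.00197; the shares of all genes were 31.6% and 33.3%. *Rel* was called there without Ly6C hi replicate 1 (-0.73) or Ly6C low replicate 4 (-1.02), *Nfkbib* without Ly6C low replicate 2 (-0.59), and in WT *Nfkbie* without Ly6C hi replicate 4 (-0.63) or Ly6C low replicate 3 (-0.64). Within *Slc29a3*-/- mice, 7 members were lower in Ly6C hi, against 37.6% of all genes called in either direction, and 6 by adjusted P, against 41.2%. The level of *Rel* was 55.6 ± 12.5 RPM (SD, n = 4) in the Ly6C hi subset, against 163 ± 24.4 RPM (SD, n = 4) in the Ly6C low subset (log2 fold change -1.55 ± 0.33), and *Nfkb2* was at 259 and 439 RPM (-0.78 ± 0.13, adjusted P 2.38e-05). *Nfkbia* (-0.82), *Nfkbib* (-0.68), *Nfkbie* (-0.66), *Nfkbiz*, and *Tnfaip3* (-1.40) made up the 7, and *Rela* (-0.56) passed by adjusted P only. The median of all genes was -0.10 here.

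Some calls between the *Slc29a3*-/- subsets were lost when 1 library was left out. Those of *Tnfaip3* and *Nfkbia* were near the threshold, with unadjusted P values of 0.0398 and 0.0426 in limma. *Tnfaip3* was lost without any 1 library except Ly6C hi replicate 1 and Ly6C low replicate 2, with values from -1.47 to -1.25, and *Nfkbia* without Ly6C hi replicate 3 or 4 or Ly6C low replicate 2, 3, or 4 (-0.83 to -0.69), and both were lost without the filter (-1.40 and -0.82). *Nfkbie* was lost without Ly6C hi replicate 4 (-0.32), the library with the highest neutrophil sum. Under TMM, 4 members were called, and *Nfkbia* (-0.72), *Nfkbie* (-0.57), and *Tnfaip3* (-1.31) were not. The neutrophil list, at 137 to 235 RPM in *Slc29a3*-/- Ly6C low libraries, had a median log2 fold change of 5.75 between these subsets, against 3.34 in WT and 5.45 in *Slc29a3*-/- *Tlr7*-/- mice.

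An interaction over all 24 libraries tested whether a genotype effect was unequal in the 2 subsets, and no member passed an adjusted P of 0.05 in limma. For *Slc29a3*-/- against WT, 3 of 9 had an unadjusted P under 0.05 (*Nfkb2* -0.52 ± 0.18, *Rel* -1.003 ± 0.47, and *Nfkbib* -0.86 ± 0.35), the smallest adjusted P was 0.0775, and 8.85% of all genes passed. With a replicate block, 2 members passed, *Nfkbib* (-0.86) and *Nfkbiz* (-1.17), and so they did without WT Ly6C hi replicate 4 (-1.21 and -1.88). Without *Slc29a3*-/- Ly6C hi replicate 1, *Nfkb2* passed (-0.64). For *Slc29a3*-/- *Tlr7*-/- against WT, no member had an unadjusted P under 0.05 and 0 of 9 passed by adjusted P, where 0.0634% of all genes passed. With WT replicate 4 alone, no member passed by adjusted P in limma or had an unadjusted P under 0.05 in either interaction with WT. For the 2 mutants against each other, 2 had an unadjusted P under 0.05 (*Nfkb2* -0.53 ± 0.18 and *Rel* -0.99 ± 0.47), the smallest adjusted P was 0.0667, and 8.97% of all genes passed. *Nfkb2* passed without *Slc29a3*-/- Ly6C hi replicate 1 (-0.66) or *Slc29a3*-/- *Tlr7*-/- Ly6C low replicate 1 (-0.60).

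**Figure D3:**
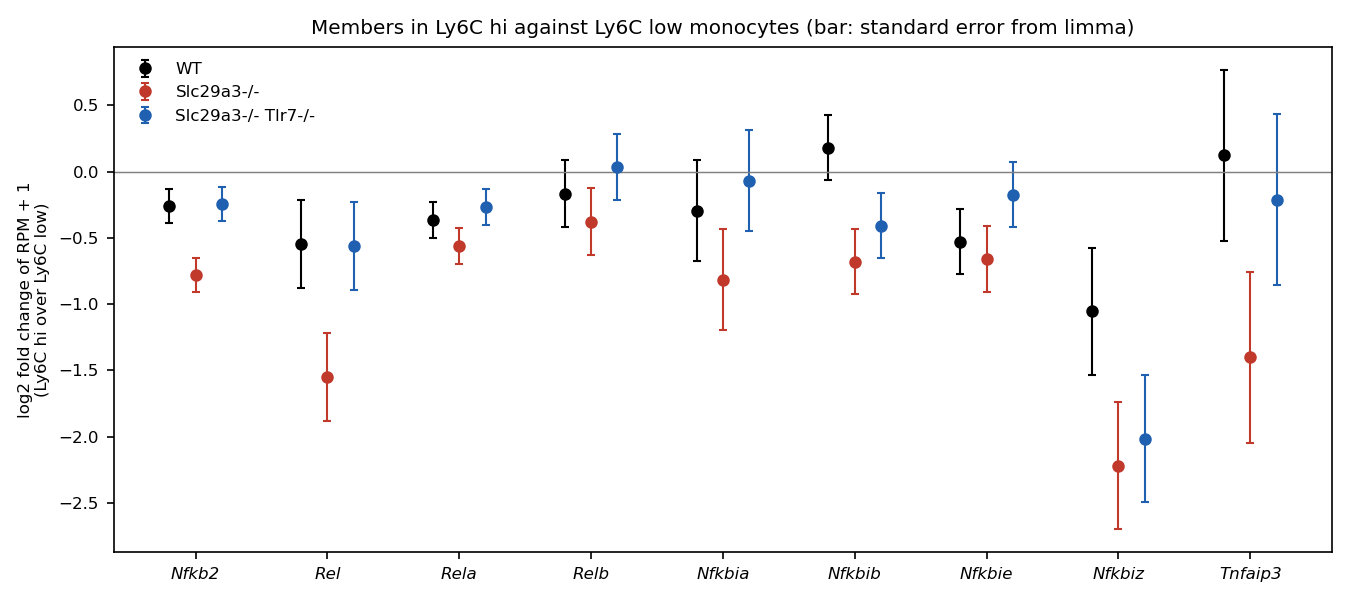
Log2 fold change of RPM + 1 between Ly6C hi and Ly6C low monocytes for each member in WT (black), *Slc29a3*-/- (red), and *Slc29a3*-/- *Tlr7*-/- mice (blue), each from 4 against 4 libraries; bars are standard errors from limma. *Nfkbiz* is below 0 in all 3 genotypes (-1.05, -2.22, and -2.02), and every member is farthest below 0 in *Slc29a3*-/- (*Nfkb2* -0.78 and *Rel* -1.55 among them).

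Immediate early genes, which are transcribed within minutes of a stimulus by factors already in the cell, separated the same libraries. The summed RPM of 22 such genes was 18074 to 18296 in WT replicates 1 to 3 of Ly6C hi, 2131 in WT replicate 4, 1144 to 1809 in *Slc29a3*-/-, and 2202 to 3989 in *Slc29a3*-/- *Tlr7*-/- libraries. In Ly6C low, the sums were 13606 to 19252, 2638, 2989 to 3530, and 2832 to 5613 in the same order. WT replicate 4 thus stood with the mutants in this list too. *Fos* read 3572 to 4128 RPM in WT replicates 1 to 3 of Ly6C hi and 145 RPM in replicate 4, and *Egr1* 464 to 536 and 5.54 RPM. In *Slc29a3*-/- Ly6C hi against all WT, 19 of the 20 immediate early genes tested were called lower, with a median log2 fold change of -2.50. In *Slc29a3*-/- *Tlr7*-/- Ly6C hi the count was 18 of 20. Over all genes, 1826 and 997 of 10561 were called lower in these comparisons. In Ly6C low it was 14 in *Slc29a3*-/- and 16 in *Slc29a3*-/- *Tlr7*-/-, where 727 and 1508 of 10317 genes were called lower. By adjusted P in limma, 18 and 2 were lower in Ly6C hi and 8 and 8 in Ly6C low, in the same order. Between the mutants, *Fos* (-1.78), *Junb* (-0.997), *Jund* (-0.66), and *Rgs1* (-2.33) were lower in *Slc29a3*-/- in Ly6C hi and *Ier2* (1.17) was higher in Ly6C low. None of these passed by adjusted P. The part of whatever moved these genes in the values of the members was not tested. Between WT replicates 1 to 3 and the mutants, genotype and barcode range cannot be told apart. WT replicate 4 shared the genotype label of WT replicates 1 to 3 but not their barcode range.

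**Figure D4:**
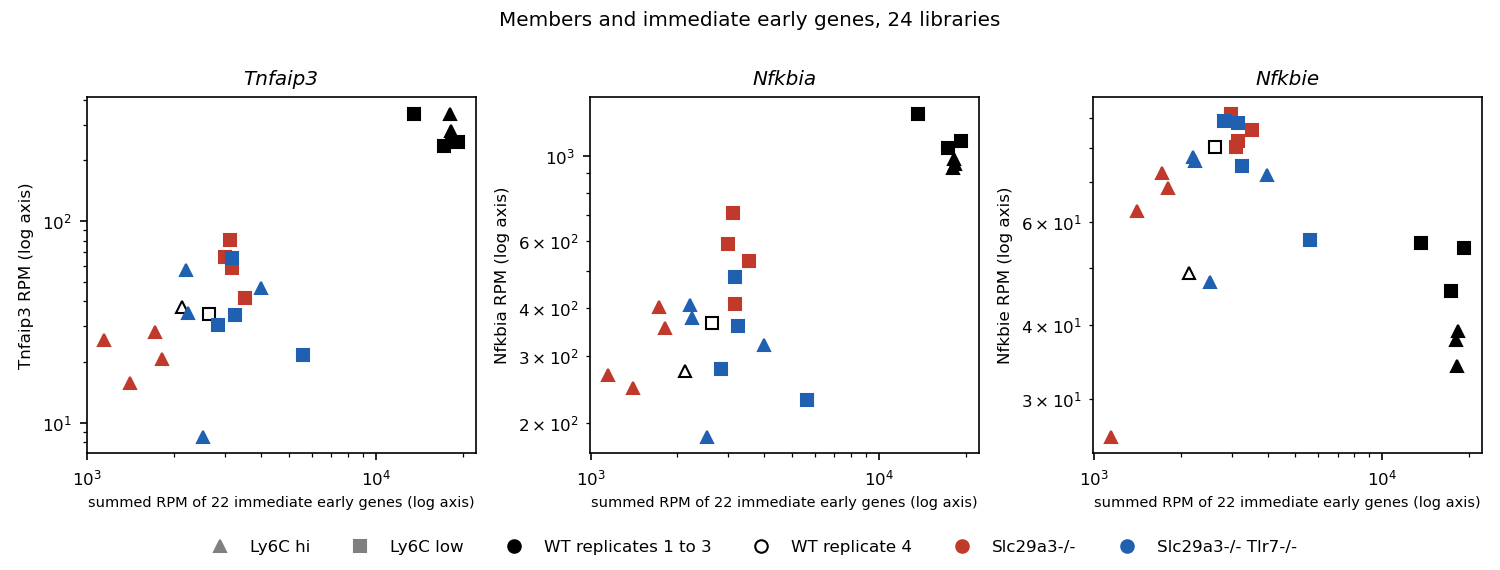
RPM of *Tnfaip3*, *Nfkbia*, and *Nfkbie* against the summed RPM of 22 immediate early genes in 24 libraries, on log axes; triangles are Ly6C hi and squares Ly6C low, black is WT with replicate 4 open, red is *Slc29a3*-/-, and blue is *Slc29a3*-/- *Tlr7*-/-. The 6 filled black points have sums of 13606 RPM or more and lie apart at the top right for *Tnfaip3* and *Nfkbia*, and the other 18 libraries have sums of 5613 RPM or less.

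Markers of other cell types also varied, not all of them with the same libraries. In Ly6C hi, 6 T cell genes summed to 177 to 189 RPM in WT replicates 1 to 3, 50.9 RPM in WT replicate 4, and 8.50 to 108 RPM in mutants, and 4 NK cell genes summed to 362 to 406, 95.5, and 6.01 to 592 RPM, the highest of them in a *Slc29a3*-/- *Tlr7*-/- library. Conventional dendritic cell genes summed to 98.5 to 102 RPM in WT replicates 1 to 3, 75.7 RPM in replicate 4, 15.1 to 36.8 RPM in *Slc29a3*-/-, and 86.3 to 110 RPM in *Slc29a3*-/- *Tlr7*-/-. All 6 T cell, 4 NK cell, 5 conventional dendritic cell, and 3 plasmacytoid dendritic cell genes tested were called lower in *Slc29a3*-/- than in WT Ly6C hi libraries. Over all genes tested, 1826 of 10561 were. In Ly6C low, T cell genes summed to 22.3 to 30.7 RPM in WT replicates 1 to 3 and to 80.8 RPM in WT replicate 4. NK cell genes there summed to 57.5 to 97.3 RPM in WT replicates 1 to 3 and to 17.5 RPM in replicate 4. In the mutants they summed to 7.71 to 30.1 RPM (*Slc29a3*-/-) and 1.91 to 22.4 RPM (*Slc29a3*-/- *Tlr7*-/-). The part of these cells in the members' values was not tested.

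The other genes of the pathway were taken from lists chosen by function. Where a count below was small, its genes are named even if they were picked only after their values were seen. Against WT, 26.7% of all genes were called in *Slc29a3*-/- and 12.6% in *Slc29a3*-/- *Tlr7*-/- Ly6C hi monocytes at the study thresholds. In Ly6C low, these shares were 13.2% and 20.7%. Of 17 tested genes of other IκB proteins and NF-κB inhibitors, 2 were lower and none higher in *Slc29a3*-/- than in WT Ly6C hi monocytes, with a median of -0.28 against -0.14 for all genes, and in *Slc29a3*-/- *Tlr7*-/- 1 was lower. *Zc3h12a*, which encodes the RNase regnase-1, was lower in both (-0.69 and -0.69). *Nfkbid*, which encodes the nuclear IκBNS, was the other one lower in *Slc29a3*-/-, with 167 to 191 RPM in WT replicates 1 to 3, 61.4 RPM in replicate 4, and 48.6 to 82.6 RPM in *Slc29a3*-/- libraries. *Cyld*, the deubiquitinase, was at 104 to 114, 101, and 57.9 to 89.8 RPM (log2 fold change -0.54, under the fold threshold). For *Slc29a3*-/- Ly6C low monocytes, 3 of 17 were higher and none lower. They were *Nfkbil1* (0.95, adjusted P 0.174), *Bcl3* (0.72, adjusted P 0.00958 in limma), a nuclear IκB, and *Irak3* (0.68, adjusted P 0.0199), which blocks IRAK signaling; WT replicate 4 was at 73.1 and 152 RPM, inside or next to the range of the other WT libraries for both (67.8 to 74.0 and 151 to 189 RPM).

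Of 9 tested IκB kinase genes and activators, *Tab2*, an adaptor of the kinase TAK1, was lower in both mutants in Ly6C hi (-0.78 in *Slc29a3*-/- and -0.61 in *Slc29a3*-/- *Tlr7*-/-), and *Ikbkb* was higher in *Slc29a3*-/- *Tlr7*-/-. *Ikbkb*, the catalytic kinase subunit, was at 189 to 202 RPM in WT replicates 1 to 3, 232 RPM in replicate 4, 106 to 243 RPM in *Slc29a3*-/-, and 269 to 382 RPM in *Slc29a3*-/- *Tlr7*-/- Ly6C hi libraries (0.66 for *Slc29a3*-/- *Tlr7*-/- against WT, called). *Ikbkg*, which encodes the regulatory subunit NEMO, was at 10.7 to 20.6 RPM in all Ly6C hi libraries and was not called. Of 18 upstream adaptor and ubiquitin ligase genes, *Tirap* was higher (0.79) and *Irak2* (-0.74), *Traf5* (-0.69), and *Rbck1* (-0.62) were lower in *Slc29a3*-/- Ly6C hi, and none was called in *Slc29a3*-/- *Tlr7*-/- by limma at the study thresholds. *Myd88* was at 183 to 328 RPM over all Ly6C hi libraries, highest in WT replicate 4. *Traf6* was at 106 to 116 RPM in WT replicates 1 to 3, 87.1 RPM in replicate 4, and 68.8 to 84.2 RPM in mutant Ly6C hi libraries; in Ly6C low it was called lower in both mutants (-0.73 and -0.67). Of 8 TNF receptor family inputs, *Tnfrsf11a* (-1.02) and *Tnfrsf13c* (-1.004) were lower in *Slc29a3*-/- Ly6C hi, and *Tnfrsf1b* was higher in *Slc29a3*-/- *Tlr7*-/- (0.66 in Ly6C hi and 0.75 in Ly6C low). For the kinase, adaptor, and receptor lists, the shares of all genes called in Ly6C hi were 26.7% (*Slc29a3*-/-) and 12.6% (*Slc29a3*-/- *Tlr7*-/-). They were 13.2% and 20.7% in Ly6C low.

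Of 20 tested NF-κB target genes, 12 were lower and 1, *Marcksl1* (0.97), was higher in *Slc29a3*-/- than in WT Ly6C hi monocytes, with a median of -0.99. Over all genes, 26.7% were called there, 1826 of 10561 as lower. In *Slc29a3*-/- *Tlr7*-/- Ly6C hi, 8 were lower and 1, *Icam1* (0.79), was higher, where 997 of 10561 genes were called lower. None of the 20 passed by adjusted P in the latter. In Ly6C low monocytes, the counts were 11 lower and 1 higher of 23 in *Slc29a3*-/- and 10 lower of 23 in *Slc29a3*-/- *Tlr7*-/-. Over all genes, 727 and 1508 of 10317 were called lower there, in the same order. The list separated the WT libraries as well, with sums of 3587 to 3736 RPM in WT replicates 1 to 3 of Ly6C hi, 1386 RPM in replicate 4, 1030 to 1316 RPM in *Slc29a3*-/-, and 1310 to 2428 RPM in *Slc29a3*-/- *Tlr7*-/- libraries. *Cxcl2*, a neutrophil chemoattractant, read 181 to 215 RPM in WT replicates 1 to 3 of Ly6C hi, 0 in WT replicate 4, and 0 to 0.882 RPM in mutants; being above 1 RPM in 3 libraries only, it was not tested in that subset. *Ccl4*, another chemokine, was at 11.3 to 12.8, 0.624, and 0 to 3.85 RPM. *Il1b*, which encodes IL-1β, did not follow the WT split in Ly6C low monocytes. There it read 311 to 348 RPM in WT replicates 1 to 3, 367 RPM in replicate 4, and 683 to 746 RPM in *Slc29a3*-/- libraries. In the latter it was called higher (1.08, adjusted P 0.0384 in limma). In Ly6C hi it was lower in *Slc29a3*-/- against all 4 WT libraries (-1.33). The values there were 206 to 228 RPM in WT replicates 1 to 3, 108 RPM in replicate 4, and 38.6 to 106 RPM in *Slc29a3*-/- libraries. *Icam1* and *Sod2*, an adhesion molecule and the mitochondrial superoxide dismutase, were not called in *Slc29a3*-/- in either subset, and *Tnf* was at 0 to 2.20 RPM in all libraries, where it was called lower in *Slc29a3*-/- *Tlr7*-/- Ly6C low (-1.04).

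Without WT libraries in the contrast, the lists also held genes that differed between the mutants at the study thresholds. Over all genes, 13.7% were called in Ly6C low (1113 higher and 301 lower in *Slc29a3*-/-) and 22.3% in Ly6C hi (1105 higher and 1254 lower). By adjusted P in limma, 0 kinase genes and 0 other inhibitors passed in Ly6C low, and 1 target passed, as lower. In the Ly6C low subset, 3 of 10 kinase genes were higher in *Slc29a3*-/- than in *Slc29a3*-/- *Tlr7*-/-, namely *Ikbke* (1.31), *Tbk1* (0.92), and *Map3k7* (0.68), the first 2 encoding the kinases of interferon induction and the third TAK1. Of 23 targets, *Il10* (2.27), *Il1b* (0.80), and *Tnf* (0.68) were higher and *Ccl5* (-1.56) and *Icosl* (-0.88) lower in *Slc29a3*-/-, and of 17 other inhibitors *Tnip2* (0.59), *Tnip3* (0.78), and *Tax1bp1* (1.15) were higher. *Tnf* was near the limit of detection, at 0.72 to 2.05 RPM in *Slc29a3*-/- and 0 to 1.29 RPM in *Slc29a3*-/- *Tlr7*-/- libraries. In the Ly6C hi subset, *Ikbkb* was lower in *Slc29a3*-/- (-0.82), as were *Irak2* (-0.78), *Traf5* (-0.71), *Tnfrsf1b* (-0.66), *Tnfrsf11a* (-0.94), and *Tnfrsf13c* (-0.71). Of 20 targets, 6 were lower there, with *Icam1* (-0.91), *Irf1* (-0.75), and *Cd83* (-0.97) among them, and *Marcksl1* (0.87) was higher, with a median of -0.61. *Cd83* was low and overlapped, at 0.396 to 0.949 RPM in *Slc29a3*-/- and 0.731 to 4.17 RPM in *Slc29a3*-/- *Tlr7*-/- libraries. *Bcl3* (-0.63) was lower and *Otud7b* (0.87) higher.

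Across the 24 libraries, *Nfkbia* and *Tnfaip3* were each most like the other of all genes with a mean of at least 10 RPM (Pearson's r 0.95, 7492 genes compared). Next to *Nfkbia* came *Klf9* (0.95) and *Pnrc1* (0.94), and next to *Tnfaip3* came *Ccrl2* (0.94) and *Klf9* (0.93). Next to *Rela* came *Wsb1* (0.94), *Ddx28* (0.93), and *Nxf1* (0.93). The libraries share their groups and the split among WT libraries, so these are descriptions. Among the members, *Nfkbie* had r of -0.33 with *Tnfaip3*, -0.38 with *Nfkbib*, and 0.68 with *Nfkb2*, and *Rel* and *Rela* had 0.86. By group, the Ly6C low WT libraries had the highest mean of *Nfkbia*, *Nfkbiz*, *Rel*, *Relb*, and *Rela*, the WT Ly6C hi libraries that of *Nfkbib* and *Tnfaip3*, while *Nfkb2* and *Nfkbie* were highest in *Slc29a3*-/- Ly6C low. *Rel* in the WT and *Slc29a3*-/- Ly6C low libraries overlapped (124 to 244 and 133 to 191 RPM), as did *Nfkb2* in the Ly6C low groups. These WT means mix replicate 4 with the others. In Ly6C low, WT replicate 4 had 365 RPM of *Nfkbia* and 447 RPM of *Nfkbiz*, below the *Slc29a3*-/- means of 560 and 561 RPM. Its *Rel* (192 RPM) and *Rela* (294 RPM) were above the *Slc29a3*-/- means of 163 and 235 RPM. In Ly6C hi, WT replicate 4 had 37.6 RPM of *Tnfaip3*, below the mean of 61.5 RPM in *Slc29a3*-/- Ly6C low.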

How the data were processed

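The 24 libraries were grouped by their labels into 6 groups of subset and genotype with 4 replicates each. The authors deposited a table of RPM, reads scaled to a common total, which sums to 1000000 per library, for 23930 amplicons. According to the methods of the study, AmpliSeq reads were trimmed with Cutadapt, aligned to mm10 with STAR, counted with HTSeq, and normalized by relative log expression; which step wrote the table is not stated. Because an amplicon is short and counted alone, its RPM depends on PCR yield, and scaling to the total lets a few abundant genes shift all the others. The value 0.0001, which stands for 0 reads, was set to 0, and 27 gene symbols that had become dates were repaired.

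A gene was kept where 4 or more libraries reached 1 RPM (10561 in Ly6C hi, 10317 in Ly6C low, and 11042 over both), and log2(RPM + 1) was fitted with limma 3.58.1 in R 4.3.3 with an intensity trend. This understates the change of low genes. The 3 genotypes of a subset shared a fit of 12 libraries, and subsets and interactions were tested over all 24. Calls were made at the thresholds of the study, an unadjusted P under 0.05 with a change of more than 1.5-fold, and separately at a Benjamini-Hochberg adjusted P under 0.05 over all genes tested; interactions were called by adjusted P only. Reads per library were inferred from the step between low values, and limits of detection cover counting error only. The fit was run on simulated data in which all libraries of a group shared a mean. Because this leaves out the split among the WT libraries, it does not check the calls against WT. The members and lists were chosen with earlier results of these data known. All members were tested in every comparison. The text names members, examples marked in the lists, *Slc29a3*, *Tlr7*, and the 3 genes most correlated with *Nfkbia*, *Tnfaip3*, and *Rela*. It also names further genes of the lists that were picked only after their values were seen. Promoters came from RefSeq and were searched in Python 3.11.15. Same-numbered Ly6C hi and Ly6C low libraries correlated in their deviations in WT (0.26 to 0.62), but WT replicates 1 to 3 did so with other numbers too (0.27 to 0.32), and not every pair of the mutants did; the numbers were not taken as pairs. Alternatives were TMM scaling (computed unweighted on RPM), no filter, a pseudocount of 0.1, a replicate block, each library left out, and WT replicate 4 alone; WT replicates 1 to 3 alone and fits without WT were added after the data were seen. A planned count model was not run because the table holds no counts.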

Additional observations from a re-analysis of the deposited data

Results flagged for a closer look

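In 54 groups of 4 libraries (9 members in 6 groups), 4 held a library far from the other 3 by Dixon's test at the 95% level, which chance gives in about 1 of 20 groups. For *Nfkbia* and *Nfkbiz* it was WT Ly6C hi replicate 4, at 274 and 126 RPM against 928 to 981 and 891 to 940 RPM. For *Rela* it was *Slc29a3*-/- Ly6C hi replicate 3, at 134 RPM against 166 to 170 RPM, and *Slc29a3*-/- *Tlr7*-/- Ly6C low replicate 4, at 153 RPM against 228 to 235 RPM. WT replicate 4 was the only library marked more than once.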

How the results depend on the processing

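The count of members called changed most with the choice of WT libraries. Against WT replicate 4 alone, fewer members were called in each genotype comparison with WT, but these fits hold 1 WT library per subset. Between the WT subsets, that setting compares 1 library with 1 and takes its spread from the mutants, so its calls are not counted. The cause was not tested. The called values that turned were *Nfkbia* (0.18 in *Slc29a3*-/- and 0.17 in *Slc29a3*-/- *Tlr7*-/- Ly6C hi), *Nfkbiz* (0.12 in *Slc29a3*-/- *Tlr7*-/- Ly6C hi, 0.33 in *Slc29a3*-/- and 0.32 in *Slc29a3*-/- *Tlr7*-/- Ly6C low), and *Tnfaip3* (0.78 in *Slc29a3*-/- and 0.023 in *Slc29a3*-/- *Tlr7*-/- Ly6C low). Among values not called, *Nfkbia* in *Slc29a3*-/- (0.59) and *Nfkbie* in *Slc29a3*-/- *Tlr7*-/- Ly6C low (-0.087) also changed sign, as did *Nfkb2* in *Slc29a3*-/- *Tlr7*-/- Ly6C hi and *Relb* in *Slc29a3*-/- *Tlr7*-/- Ly6C hi and in both Ly6C low comparisons. With WT replicates 1 to 3 only, 5 were called in *Slc29a3*-/- Ly6C low and 2 in the interaction of *Slc29a3*-/- with WT. TMM scaling gave 0 between the mutants in Ly6C low and 2, 4, and 2 between subsets in WT, *Slc29a3*-/-, and *Slc29a3*-/- *Tlr7*-/-. No filter gave 0 between the mutants in Ly6C low and 0 between the WT subsets. Without WT libraries in the fit, 2 were called between the mutants in Ly6C low. The fit with a replicate block, whose numbers are not shown to pair the libraries, gave 2 in the interaction of *Slc29a3*-/- with WT and changed no other count of members. A pseudocount of 0.1 changed no count by over 1.5 times.

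Leaving out 1 library at a time gave 5 to 6 members for *Slc29a3*-/- and 5 to 6 for *Slc29a3*-/- *Tlr7*-/- against WT in Ly6C hi, 2 to 5 and 3 to 5 in Ly6C low, and 0 to 1 and 0 to 2 between the mutants in Ly6C hi and Ly6C low. Between subsets it gave 0 to 1 in WT, 4 to 8 in *Slc29a3*-/-, and 1 to 2 in *Slc29a3*-/- *Tlr7*-/-, and for the interactions 0 to 2 (*Slc29a3*-/- with WT), 0 to 0 (*Slc29a3*-/- *Tlr7*-/- with WT), and 0 to 1 (the mutants). *Relb*, at 0 to 2.10 RPM, was not called under any setting.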
